A study of Mus musculus with 20 samples.

Results

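The 49 genes described here drive chromosome replication and cell division, and they were taken by symbol as 17 genes of S phase and 32 genes of mitosis from the 47069 genes of the deposited count table. All 49 were found, and all 49 passed the filter on low counts that left 17622 genes for testing. Kidney RNA of 20 male mice on the 129SJ x C57Bl/6J background was sequenced, 5 wild type (WT) and 15 lacking both copies of Col4a3, the gene of a collagen chain of the glomerular basement membrane, as in Alport syndrome. WT mice were left untreated, and the knockout mice received subcutaneous PBS once a week (Veh, n = 6), lademirsen in PBS at 50 mg/kg once a week, an oligonucleotide inhibitor of the microRNA miR-21 (anti-miR-21, n = 6), or ramipril, an inhibitor of angiotensin-converting enzyme, in the drinking water at 11 mg/L beside the vehicle (ACEi, n = 3). Treatment began at 5 weeks of age and the mice were killed at 15 weeks, so the treated and Veh mice share the knockout, and Veh mice differ from WT mice by injections as well as genotype. The deposited library table states the ramipril dose per body weight instead, and the label on RNA extraction speaks of adipose tissue although each sample is labelled kidney.

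Cells enter S phase when cyclin E with its kinase releases E2F factors from the retinoblastoma protein, and E2F then raises the genes that license origins, unwind DNA and make nucleotides. A later wave, from promoters that often hold CHR and CCAAT elements, supplies the kinases, kinesins and checkpoint proteins of mitosis. The DREAM and MYB-FOXM1 complexes act through the CHR elements. In the healthy adult kidney few cells divide, whereas injured tubules, interstitial cells and infiltrating leukocytes can all re-enter the cycle.

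Promoter stretches are shown first because the S phase and mitosis members differed in the words they hold around the gene start. Windows from 250 bases before to 50 bases after each RefSeq gene start (GRCm38.p6) were at hand for 14 of the 17 S phase members, 27 of the 32 mitosis members and 17492 protein-coding genes. An E2F word (TTTCCCGC, TTTCGCGC, TTTGCCGC or TTTGGCGC on either strand) stood in the windows of 6 S phase members (42.9%), namely Cdc6, Cdt1, Mcm3, Mcm5, Mcm6 and Mcm7, in 1 mitosis member (3.70%), Cdk1, and in 3.29% of all genes. A CHR word (TTTGAA or TTCGAA on either strand) stood in 21 mitosis members (77.8%), 3 S phase members (21.4%) and 20.2% of all genes. CCAAT on either strand stood in 22 mitosis members (81.5%), 9 S phase members (64.3%) and 42.3% of all genes, and CHR together with CCAAT in 19 mitosis members (70.4%), 3 S phase members (E2f8, Mcm2 and Mcm7) and 8.22% of all genes. Over the bases before the start alone, an E2F word stood in 4 S phase members and 2.72% of all genes, and a CHR word in 11 mitosis members (40.7%), 3 S phase members and 18.4% of all genes, so that 10 of the 21 mitosis members with a CHR word did not hold it wholly before the start. These shares describe letters in a window and no binding was measured.

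The 170 bases just before the gene start follow for 3 S phase members with E2F words and 5 mitosis members with CHR and CCAAT words, 5′ to 3′ along the gene, with all words of the 3 kinds in capitals.
Mcm5 (chr8:75109339-75109508, plus strand): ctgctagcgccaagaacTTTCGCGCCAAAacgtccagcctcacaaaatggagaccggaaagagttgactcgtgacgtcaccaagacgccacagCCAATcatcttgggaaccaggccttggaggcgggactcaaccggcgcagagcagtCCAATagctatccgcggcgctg
Mcm6 (chr1:128359706-128359875, minus strand): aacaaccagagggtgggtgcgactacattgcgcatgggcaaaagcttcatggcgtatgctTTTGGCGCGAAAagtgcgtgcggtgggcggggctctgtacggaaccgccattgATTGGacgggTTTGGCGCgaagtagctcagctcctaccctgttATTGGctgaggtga
Cdc6 (chr11:98907981-98908150, plus strand): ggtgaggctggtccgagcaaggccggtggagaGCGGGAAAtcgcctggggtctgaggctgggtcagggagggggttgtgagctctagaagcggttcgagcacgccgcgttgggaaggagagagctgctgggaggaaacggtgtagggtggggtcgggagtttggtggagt
Cdk1 (chr10:69352913-69353082, minus strand): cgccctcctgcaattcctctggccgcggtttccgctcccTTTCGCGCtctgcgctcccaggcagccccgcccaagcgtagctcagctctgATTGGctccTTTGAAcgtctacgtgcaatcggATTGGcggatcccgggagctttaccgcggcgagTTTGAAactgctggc
Mki67 (chr7:135716380-135716549, minus strand): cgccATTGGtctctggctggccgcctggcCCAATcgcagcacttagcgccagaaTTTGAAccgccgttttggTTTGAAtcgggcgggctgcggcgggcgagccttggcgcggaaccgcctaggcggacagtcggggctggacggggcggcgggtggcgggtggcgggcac
Top2a (chr11:99024190-99024359, minus strand): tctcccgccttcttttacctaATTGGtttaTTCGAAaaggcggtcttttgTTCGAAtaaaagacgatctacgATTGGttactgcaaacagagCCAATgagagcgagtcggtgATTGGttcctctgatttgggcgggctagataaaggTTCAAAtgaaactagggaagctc
Ccnb2 (chr9:70421555-70421724, minus strand): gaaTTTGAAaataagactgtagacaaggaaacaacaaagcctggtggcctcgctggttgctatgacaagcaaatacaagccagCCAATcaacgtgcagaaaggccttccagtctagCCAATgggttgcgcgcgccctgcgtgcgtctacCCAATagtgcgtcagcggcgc
Cdc20 (chr4:118437344-118437513, minus strand): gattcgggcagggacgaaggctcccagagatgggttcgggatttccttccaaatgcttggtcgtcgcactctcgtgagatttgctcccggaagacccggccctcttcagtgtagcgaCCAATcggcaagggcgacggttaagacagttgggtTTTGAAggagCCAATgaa

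In Mcm5 the words TTTCGCGC and GCGCCAAA overlapped between 153 and 142 bases before the start, and Mcm6 held 3 E2F words, at 110, 106 and 47 bases before it. Cdk1 held all 3 kinds of word, with TTTCGCGC at 131 bases before the start and TTTGAA at 71 and again at 15 bases before it. The changes between Veh and WT mice overlapped between members with an E2F word, with CHR together with CCAAT, and with neither of these 2 patterns, with no test made. The 22 members with both CHR and CCAAT had a median log2 fold change of 3.11 (range 0.59 to 4.05), the 7 with an E2F word 2.21 (0.87 to 3.58), and the 14 with neither 1.84 (-0.94 to 5.35), Mcm7 and Cdk1 counting under both. Of these 14, Anln and Kif2c held a CHR word alone, and Ccnb1, Cenpe, Cks2, Pcna, Rrm1 and Rrm2 held CCAAT alone.

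Each library held between 28474301 and 29479629 estimated counts, levels are given as CPM (each count as a share of its TMM-scaled library total), and differences as log2 fold changes ± SE with the Benjamini-Hochberg adjusted p of edgeR's quasi-likelihood test over all genes, called below 0.05. Col4a3 reads were 194 to 238 CPM in WT mice and 27.9 to 74.9 CPM over the 15 knockout mice, with no overlap. TMM factors were 0.771 to 0.850 for WT and 1.12 to 1.26 for Veh libraries, and with library totals alone the median gene was 0.65 higher on the log2 scale in Veh than in WT mice, against 0.07 with TMM. No member past the threshold changed direction with that scaling, while 6 values that were called with neither scaling changed sign, namely Gins2, Cenpe, Ect2 and Cks2 under anti-miR-21 against WT, Cks2 under ACEi against WT, and Tyms between the treatments. The libraries came from 2 flow cells, A with 13 and B with 7, and each group had mice on both. In these RNA samples of whole tissue, more dividing cells and more RNA per cell cannot be told apart.

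S phase and mitosis genes were higher in Veh than in WT kidneys almost without exception. All 17 S phase members rose, with a median log2 fold change of 1.71 (range 0.47 to 4.05), and 31 of the 32 mitosis members rose with a median of 3.16 and a highest value of 5.35. Among all genes tested 39% were called higher and 34% lower, with a median of 0.07. For all 17 S phase members and 30 of the 32 mitosis members no Veh mouse overlapped a WT mouse, which held for 54.9% of all genes. Cks2 was the only member that fell, and Cenpe and Ect2 were the 2 whose groups overlapped, while those of Tyms were only just apart. Per length, 29 of the 32 mitosis members averaged under 1 FPKM in WT kidneys against 3 of the 32 in Veh kidneys, and the S phase members had 4 of 17 and 2 of 17 under that level. Pcna reached the highest mean of the 49 in Veh mice, at 59.5 ± 4.30 FPKM (SD, n = 6), and Melk the lowest in WT mice, at 0.0287 ± 0.0138 FPKM (SD, n = 5).

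**Figure D1:**
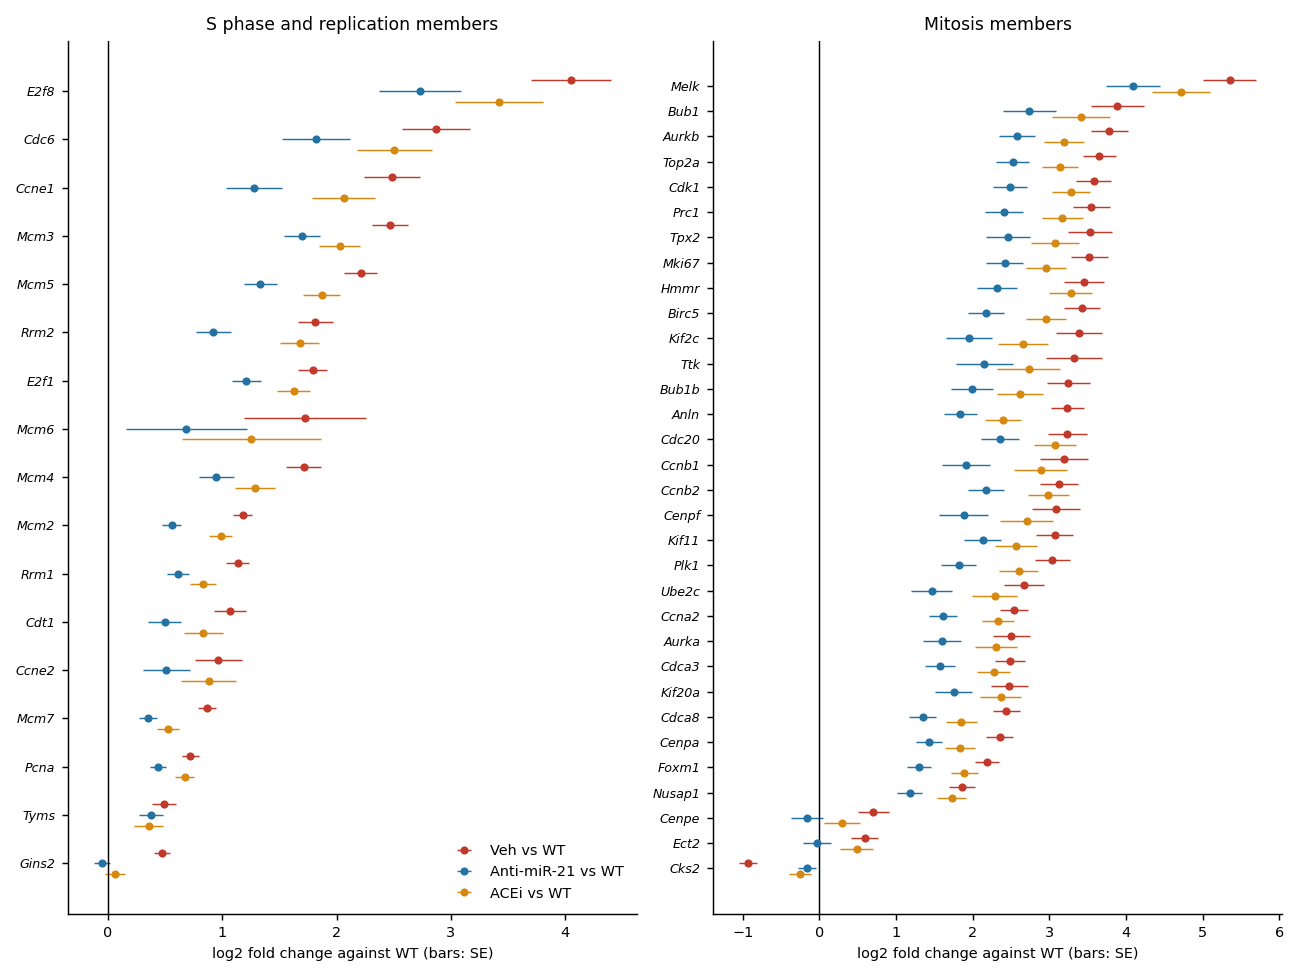
Log2 fold change against WT (x axis, bars are SE) of each of the 49 members in Veh (red), anti-miR-21 (blue) and ACEi mice (orange), ordered by the Veh value within S phase and mitosis. The anti-miR-21 point lies left of the ACEi point for 16 of the 17 S phase members and 31 of the 32 mitosis members, and most red points lie furthest right, from 0.47 to 4.05 for S phase.

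Origins are licensed by Cdc6 and Cdt1, which load the ring of Mcm2 to Mcm7 that later unwinds DNA, and Gins2 belongs to the GINS complex that activates it. Cdc6, the loading ATPase, was at 0.445, 0.451, 0.845, 0.164 and 0.294 CPM in the 5 WT mice and ran from 2.27 to 4.54 CPM (median 3.19) in the 6 Veh mice. Cdc6 under anti-miR-21 ran from 1.12 to 1.94 CPM (median 1.62) over the 6 mice, and under ACEi it was at 2.95, 2.40 and 2.18 CPM. All 6 Veh mice exceeded all WT mice, and the anti-miR-21 mice lay between them without touching either group. Cdt1, its partner, was at 6.46, 6.89, 6.55, 9.36 and 5.83 CPM in the 5 WT mice and ran from 10.6 to 16.8 CPM (median 14.99) in the 6 Veh mice. Cdt1 under anti-miR-21 ran from 8.16 to 12.028 CPM (median 9.65) over the 6 mice, and under ACEi it was at 13.9, 13.2 and 10.4 CPM. Here the anti-miR-21 mice overlapped both WT and Veh mice. Against WT, Veh mice had log2 fold changes of 2.87 ± 0.30 (adjusted p = 2.66e-08) for Cdc6 and 1.07 ± 0.14 (adjusted p = 1.14e-06) for Cdt1, the SE following each. Under anti-miR-21 both were lower than in Veh, by 1.05 (adjusted p = 9.40e-04) and 0.57 (adjusted p = 9.78e-04), while under ACEi neither was called, at -0.36 (adjusted p = 0.340) and -0.23 (adjusted p = 0.266).

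All 6 MCM ring members rose in Veh mice, but by unequal amounts. Mcm2, which has its own CHR and CCAAT words, was at 12.9, 13.985, 11.8, 11.6 and 12.4 CPM in the 5 WT mice and ran from 26.5 to 31.2 CPM (median 27.8) in the 6 Veh mice. Mcm2 under anti-miR-21 ran from 16.6 to 23.2 CPM (median 17.5) over the 6 mice, and under ACEi it was at 27.0, 23.9 and 23.6 CPM. No anti-miR-21 mouse reached the lowest ACEi or Veh mouse, and none fell to the WT level. Mcm5, the member with overlapping E2F words, was at 6.10, 7.59, 4.18, 6.75 and 6.00 CPM in the 5 WT mice and ran from 22.8 to 34.8 CPM (median 28.7) in the 6 Veh mice. Mcm5 under anti-miR-21 ran from 11.6 to 18.8 CPM (median 15.5) over the 6 mice, and under ACEi it was at 22.039, 23.1 and 22.1 CPM. The order of the 4 groups was the same as for Mcm2, again with no overlap of anti-miR-21 with any other group. Mcm3, the ring member with the largest rise, was at 4.10, 5.54, 5.11, 4.86 and 2.85 CPM in the 5 WT mice and ran from 21.8 to 29.1 CPM (median 24.4) in the 6 Veh mice. Mcm3 under anti-miR-21 ran from 10.972 to 18.7 CPM (median 14.2) over the 6 mice, and under ACEi it was at 17.7, 17.4 and 19.9 CPM. For Mcm3 the ACEi mice lay below all Veh mice and overlapped the anti-miR-21 mice. The log2 rise in Veh mice was 2.47 ± 0.16 (adjusted p = 4.68e-11) for Mcm3, 2.21 ± 0.15 (adjusted p = 6.01e-11) for Mcm5 and 1.71 ± 0.15 (adjusted p = 3.37e-09) for Mcm4, against 1.18 ± 0.08 (adjusted p = 1.84e-10) for Mcm2 and 0.87 ± 0.08 (adjusted p = 7.10e-09) for Mcm7. Under anti-miR-21 these 5 were lower than in Veh by between 0.51 (Mcm7) and 0.88 (Mcm5) on the log2 scale, each past the threshold.

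Mcm6 did not follow the rest of its ring. Its level was 1.69, 17.9, 2.15, 1.43 and 15.9 CPM in WT mice A3, A6, A14, A17 and A18, so that A6 and A18 stood near the Veh mice, which ran from 19.047 to 30.4 CPM (median 26.6). Anti-miR-21 mice A8 and A15 were at 22.7 and 20.04 CPM while the other 4 ran from 7.29 to 9.98 CPM, and ACEi mouse A13 was at 27.3 CPM beside 14.3 and 14.5 CPM. The same mice stood out in the FPKM table, where Mcm6 was at 5.14 and 4.35 FPKM in A6 and A18 and at 0.37 to 0.60 FPKM in the other 3 WT mice. The split within groups went with neither flow cell nor treatment, as A6, A8 and A15 were on flow cell A and A13 and A18 on B. Mcm6 was called between Veh and WT mice at 1.72 ± 0.53 (adjusted p = 0.00649), and in no other comparison, with an SE of 0.48 under anti-miR-21 where Mcm2 had 0.08. GENCODE M21 lists no other gene in the Mcm6 locus (GRCm38, chromosome 1, 128331590 to 128359664, minus strand).

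Gins2 is a member whose size of change depended on the table used. Its counts gave 0.47 ± 0.07 (adjusted p = 7.80e-06) between Veh and WT mice, from means of 37.4 ± 4.81 (SD, n = 5) to 51.8 ± 3.61 CPM (SD, n = 6), whereas the FPKM means were 1.60 ± 0.353 and 10.1 ± 2.23 (SD). Exons of Gse1 lie on the opposite strand within the Gins2 locus, the 2 tables rest on different gene models, and whether counting used strand is not given in the sources used here, so reads of the 2 genes cannot be told apart. Exons that overlap another gene are found for 14 of the 49 members, and 25 have no other gene in their locus.

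The G1 to S switch is run by cyclin E (Ccne1 and Ccne2), by E2f1, which activates S phase genes, and by E2f8, an atypical E2F that represses them later in the cycle. Ccne1, the first of the E cyclins, was at 0.713, 0.615, 0.465, 0.531 and 0.336 CPM in the 5 WT mice and ran from 2.06 to 4.41 CPM (median 2.78) in the 6 Veh mice. Ccne1 under anti-miR-21 ran from 0.930 to 1.51 CPM (median 1.34) over the 6 mice, and under ACEi it was at 2.03, 1.93 and 2.73 CPM. Every group was apart from every other here except Veh and ACEi. Ccne2, its paralog, was at 1.96, 2.21, 1.35, 1.31 and 1.43 CPM in the 5 WT mice and ran from 2.38 to 4.5976 CPM (median 3.11) in the 6 Veh mice. Ccne2 under anti-miR-21 ran from 1.36 to 2.78 CPM (median 2.56) over the 6 mice, and under ACEi it was at 2.98, 3.26 and 2.90 CPM. Both Veh and ACEi mice were clear of the WT mice, the anti-miR-21 mice overlapped WT and Veh mice, and A16 was the highest Veh mouse. Ccne1 rose by 2.49 ± 0.24 (adjusted p = 1.16e-08) and Ccne2 by 0.96 ± 0.21 (adjusted p = 2.76e-04) on the log2 scale in Veh mice. Anti-miR-21 lowered Ccne1 against Veh, with -1.21 ± 0.21 (adjusted p = 4.40e-05), and the Ccne2 value of -0.45 ± 0.19 (adjusted p = 0.0439) was past the threshold in 10 of the 20 fits that left out 1 mouse, and lost without A4, A16, A19, A20, A2, A12, A22, A11, A13 or A23.

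E2f1, the activator, was at 3.61, 2.54, 2.83, 3.39 and 2.43 CPM in the 5 WT mice and ran from 9.26 to 12.6 CPM (median 10.1) in the 6 Veh mice. E2f1 under anti-miR-21 ran from 5.62 to 8.28 CPM (median 6.85) over the 6 mice, and under ACEi it was at 8.89, 8.41 and 10.1 CPM. The E2f1 groups were ordered WT, anti-miR-21, ACEi and Veh, and only the last pair overlapped. E2f8, the repressor, was at 0.134, 0.369, 0.0422, 0.245 and 0.336 CPM in the 5 WT mice and ran from 2.69 to 6.02 CPM (median 3.57) in the 6 Veh mice. E2f8 under anti-miR-21 ran from 0.899 to 2.05 CPM (median 1.54) over the 6 mice, and under ACEi it was at 2.49, 2.83 and 2.11 CPM. The same order held, from a WT level near the limit of detection, with 1 to 9 counts a mouse. E2f8 had the largest change of the S phase members in Veh mice, 4.05 ± 0.35 (adjusted p = 2.19e-09), and E2f1 changed by 1.79 ± 0.13 (adjusted p = 1.48e-10). Under anti-miR-21 E2f8 was 1.32 ± 0.26 lower than in Veh (adjusted p = 2.20e-04) and E2f1 0.58 ± 0.11 lower (adjusted p = 1.62e-04), whereas under ACEi the values were -0.63 (adjusted p = 0.125) and -0.17 (adjusted p = 0.347).

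Nucleotide supply rests on ribonucleotide reductase, of which Rrm1 is the large and Rrm2 the S phase subunit, and on thymidylate synthase (Tyms), and Pcna is the sliding clamp of the replicative polymerases. Rrm2, the subunit that is degraded outside S phase, was at 6.82, 5.00, 5.53, 5.80 and 5.29 CPM in the 5 WT mice and ran from 14.8 to 29.6 CPM (median 18.7) in the 6 Veh mice. Rrm2 under anti-miR-21 ran from 8.62 to 13.1 CPM (median 10.6) over the 6 mice, and under ACEi it was at 17.1, 18.8 and 18.7 CPM. ACEi mice sat inside the Veh range, and every anti-miR-21 mouse was below every ACEi mouse. Pcna, the clamp, was at 37.995, 33.0, 34.2, 33.7 and 35.9 CPM in the 5 WT mice and ran from 51.1 to 66.4 CPM (median 57.0) in the 6 Veh mice. Pcna under anti-miR-21 ran from 42.8 to 50.1 CPM (median 47.4) over the 6 mice, and under ACEi it was at 49.7, 61.2 and 55.9 CPM. With Pcna the anti-miR-21 and ACEi mice overlapped, and 1 ACEi mouse reached the upper part of the Veh range. Tyms, the thymidylate maker, was at 10.3, 12.4, 9.04, 10.9 and 13.3 CPM in the 5 WT mice and ran from 13.3 to 18.4 CPM (median 15.5) in the 6 Veh mice. Tyms under anti-miR-21 ran from 12.8 to 16.4 CPM (median 14.5) over the 6 mice, and under ACEi it was at 12.5, 16.5 and 14.003 CPM. For Tyms only the Veh mice all lay above the WT range, and only just. The highest WT and the lowest Veh mouse were both near 13.3 CPM. Anti-miR-21 and ACEi mice lay on both sides of the highest WT mouse. The 3 knockout groups overlapped one another. Rrm2 rose in Veh mice by 1.81 ± 0.15 (adjusted p = 1.32e-09), Rrm1 by 1.14 ± 0.10 (adjusted p = 3.00e-09), Pcna by 0.72 ± 0.07 (adjusted p = 1.51e-08) and Tyms by 0.49 ± 0.11 (adjusted p = 3.44e-04) on the log2 scale. Tyms was the S phase member with the smallest change under anti-miR-21, -0.11 ± 0.10 (adjusted p = 0.341) against Veh, and it was -0.13 ± 0.12 (adjusted p = 0.402) under ACEi.

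**Figure D2:**
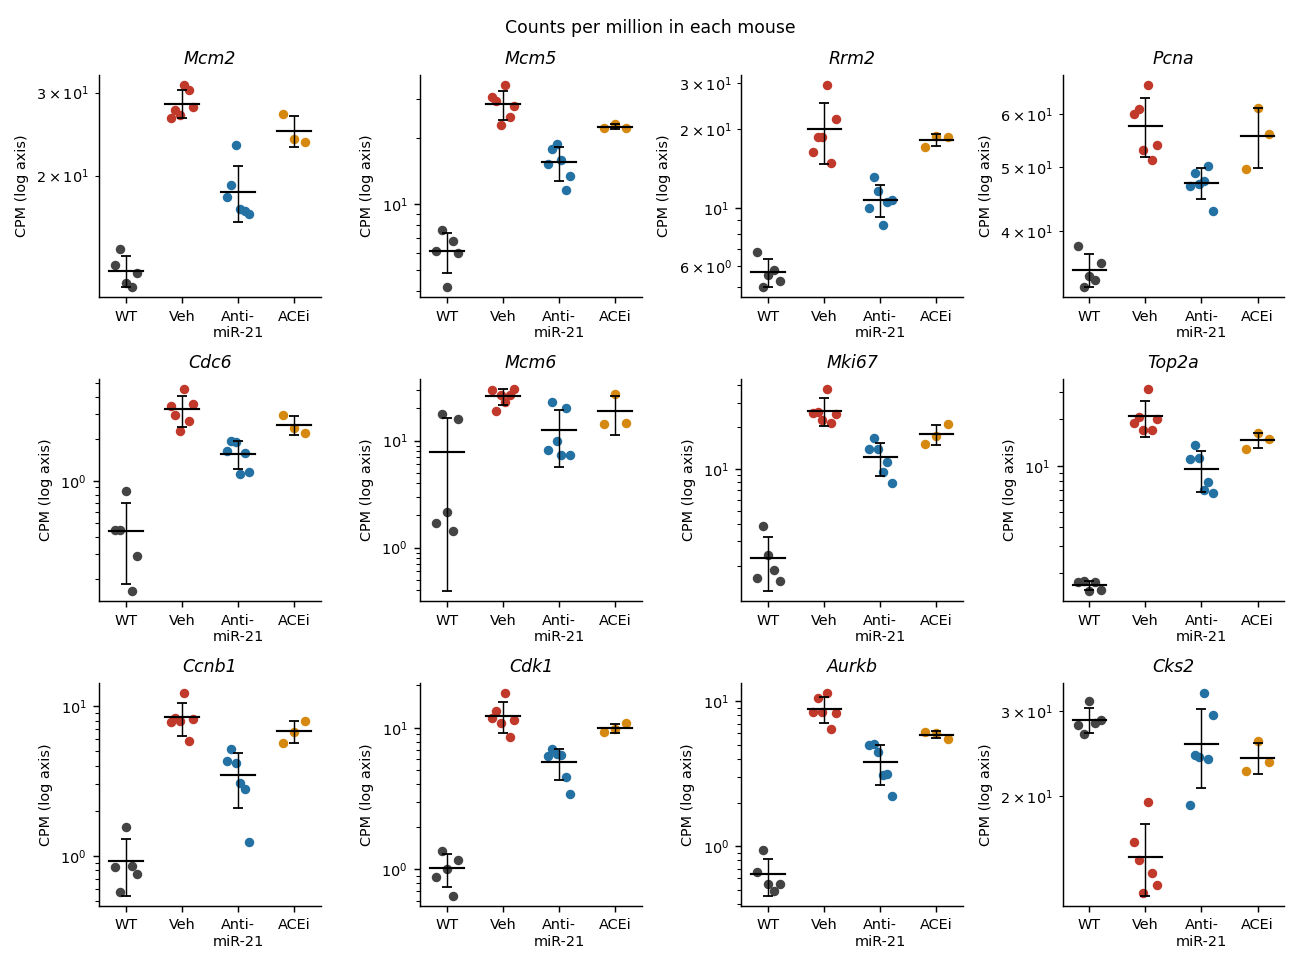
CPM (log axis) of 12 members in each mouse, with the group mean and SD as bars, for WT, Veh, anti-miR-21 and ACEi mice. Rrm2 in ACEi mice, from 17.1 to 18.8 CPM, lies inside the Veh range, Mcm6 splits within WT, anti-miR-21 and ACEi mice, and Cks2 is lowest in Veh mice.

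Among the mitosis members, Ki-67 (Mki67) coats mitotic chromosomes and is the usual tissue marker of cycling cells, topoisomerase II alpha (Top2a) untangles them, and Foxm1 drives the late wave of transcription. Mki67, the marker gene, was at 1.65, 3.90, 2.41, 1.88 and 1.55 CPM in the 5 WT mice and ran from 21.5 to 37.6 CPM (median 25.1) in the 6 Veh mice. Mki67 under anti-miR-21 ran from 7.95 to 16.8 CPM (median 12.5) over the 6 mice, and under ACEi it was at 15.1, 17.2 and 20.9 CPM. The ACEi mice were all below the Veh mice and overlapped the anti-miR-21 mice, and both treated groups were clear of WT. Top2a, the topoisomerase, was at 1.74, 1.76, 1.52, 1.76 and 1.55 CPM in the 5 WT mice and ran from 16.995 to 31.7 CPM (median 19.6) in the 6 Veh mice. Top2a under anti-miR-21 ran from 6.67 to 13.7 CPM (median 9.45) over the 6 mice, and under ACEi it was at 12.9, 16.3 and 14.957 CPM. Veh mouse A16 stood above the other 5 for both genes. Foxm1, the transcription factor, was at 2.27, 3.90, 2.37, 3.52 and 2.98 CPM in the 5 WT mice and ran from 10.3 to 17.6 CPM (median 13.4) in the 6 Veh mice. Foxm1 under anti-miR-21 ran from 5.93 to 8.41 CPM (median 7.78) over the 6 mice, and under ACEi it was at 10.3, 11.5 and 11.7 CPM. For Foxm1 the ACEi mice overlapped the Veh mice and every anti-miR-21 mouse was lower than either. In Veh mice Mki67 rose by 3.52 ± 0.24 (adjusted p = 1.00e-10), Top2a by 3.65 ± 0.22 (adjusted p = 1.60e-11) and Foxm1 by 2.19 ± 0.16 (adjusted p = 1.91e-10). Anti-miR-21 lowered the 3 against Veh, with -1.11 ± 0.19 (adjusted p = 6.06e-05), -1.13 ± 0.17 (adjusted p = 1.19e-05) and -0.89 ± 0.14 (adjusted p = 1.66e-05). The ACEi values of -0.57 (adjusted p = 0.0647), -0.51 (adjusted p = 0.0582) and -0.30 (adjusted p = 0.166) missed the threshold.

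Entry into mitosis needs Cdk1 with its A and B cyclins (Ccna2, Ccnb1, Ccnb2), and exit needs Cdc20, which directs their destruction. Cdk1, the mitotic kinase, was at 0.891, 1.35, 1.01, 0.654 and 1.17 CPM in the 5 WT mice and ran from 8.63 to 17.6 CPM (median 11.6) in the 6 Veh mice. Cdk1 under anti-miR-21 ran from 3.41 to 7.04 CPM (median 6.39) over the 6 mice, and under ACEi it was at 9.28, 9.77 and 10.7 CPM. Anti-miR-21 mice formed a band of their own, with no mouse in common with WT, ACEi or Veh. Ccnb1, the main cyclin of mitotic entry, was at 0.846, 0.574, 1.56, 0.858 and 0.755 CPM in the 5 WT mice and ran from 5.83 to 12.2 CPM (median 8.09) in the 6 Veh mice. Ccnb1 under anti-miR-21 ran from 1.24 to 5.19 CPM (median 3.62) over the 6 mice, and under ACEi it was at 5.71, 6.73 and 8.01 CPM. Anti-miR-21 mouse A22 lay within the WT range, which no ACEi or Veh mouse did. Between Veh and WT mice Cdk1 changed by 3.58 ± 0.23 (adjusted p = 3.97e-11), Ccnb1 by 3.19 ± 0.31 (adjusted p = 1.27e-08), Ccnb2 by 3.13 ± 0.24 (adjusted p = 4.50e-10), Ccna2 by 2.54 ± 0.18 (adjusted p = 1.93e-10) and Cdc20 by 3.23 ± 0.25 (adjusted p = 5.19e-10). Under anti-miR-21 the 5 were lower than in Veh by between 0.88 (Cdc20) and 1.27 (Ccnb1) on the log2 scale, all past the threshold, and under ACEi their values ran from -0.30 (Ccnb1) to -0.14 (Ccnb2), none past it. Plk1, a kinase of mitotic entry, and Aurka, which matures centrosomes, rose by 3.04 and 2.51 in Veh mice and were 1.22 and 0.90 lower under anti-miR-21, all past the threshold.

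Aurkb, Birc5 (survivin) and Cdca8 (borealin) are part of the chromosomal passenger complex, which corrects faulty attachments of chromosomes to the spindle. Aurkb, its kinase, was at 0.668, 0.943, 0.549, 0.491 and 0.545 CPM in the 5 WT mice and ran from 6.38 to 11.4 CPM (median 8.39) in the 6 Veh mice. Aurkb under anti-miR-21 ran from 2.21 to 5.09 CPM (median 3.80) over the 6 mice, and under ACEi it was at 6.10, 6.01 and 5.52 CPM. In this gene all 4 groups were apart from one another, in the order WT, anti-miR-21, ACEi and Veh. Birc5, another subunit of the complex, was at 1.16, 1.03, 1.06, 0.981 and 0.461 CPM in the 5 WT mice and ran from 7.09 to 13.6 CPM (median 10.2) in the 6 Veh mice. Birc5 under anti-miR-21 ran from 2.95 to 6.63 CPM (median 3.92) over the 6 mice, and under ACEi it was at 6.85, 7.98 and 7.09 CPM. For Birc5 the ACEi mice overlapped the Veh mice, and no anti-miR-21 mouse reached them. Aurkb rose in Veh mice by 3.78 ± 0.24 (adjusted p = 4.00e-11), Birc5 by 3.43 ± 0.24 (adjusted p = 1.04e-10) and Cdca8 by 2.44 ± 0.18 (adjusted p = 2.05e-10). Under anti-miR-21 against Veh they were at -1.21 ± 0.19 (adjusted p = 1.52e-05), -1.25 ± 0.19 (adjusted p = 1.18e-05) and -1.09 ± 0.15 (adjusted p = 4.88e-06). Under ACEi Aurkb was at -0.59 ± 0.23 (adjusted p = 0.0441) and Cdca8 at -0.59 ± 0.19 (adjusted p = 0.0178) against Veh, both called, but the Aurkb call was lost without A3, A1, A4, A9, A16, A20, A10, A11, A13 or A23 and the Cdca8 call without A11 or A13.

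The spindle checkpoint (Bub1, Bub1b, Ttk) and the centromere proteins (Cenpa, Cenpe, Cenpf) rose with the rest. Bub1, a checkpoint kinase, was at 0.0445, 0.533, 0.211, 0.164 and 0.0839 CPM in the 5 WT mice and ran from 2.67 to 3.95 CPM (median 2.99) in the 6 Veh mice. Bub1 under anti-miR-21 ran from 0.937 to 1.73 CPM (median 1.45) over the 6 mice, and under ACEi it was at 2.13, 2.79 and 1.91 CPM. Its rise of 3.89 ± 0.34 (adjusted p = 3.00e-09) started from 1 to 13 counts a WT mouse, and all 6 Veh mice lay above them. Bub1b rose by 3.25, Ttk by 3.32, Cenpf by 3.08 and Cenpa by 2.35, and Cenpe by only 0.70 ± 0.20 (adjusted p = 0.00378). Under anti-miR-21 Cenpe was 0.86 ± 0.19 lower than in Veh (adjusted p = 6.02e-04) and at -0.16 ± 0.20 against WT, not past the threshold there (adjusted p = 0.548). Cenpa, the histone variant of centromeres, was the member of this set that passed under ACEi, with -0.52 ± 0.18 (adjusted p = 0.0300), a call lost without A1, A4, A16, A11 or A13.

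Kinesins and midzone proteins (Kif11, Kif20a, Kif2c, Prc1, Tpx2, Nusap1) build the spindle, and Anln and Ect2 set up the furrow of cytokinesis. In Veh mice Prc1 rose by 3.55, Tpx2 by 3.53, Kif2c by 3.38, Anln by 3.24, Kif11 by 3.07, Kif20a by 2.48 and Nusap1 by 1.86, all past the threshold. Anln, the furrow protein anillin, was at 0.980, 1.19, 0.760, 0.736 and 0.797 CPM in the 5 WT mice and ran from 7.15 to 10.3 CPM (median 8.02) in the 6 Veh mice. Anln under anti-miR-21 ran from 1.78 to 4.62 CPM (median 3.34) over the 6 mice, and under ACEi it was at 4.43, 4.47 and 5.25 CPM. Every treated mouse was below every Veh mouse and above every WT mouse for Anln, and the treated groups overlapped. Kif2c had the largest fall of all 49 members under anti-miR-21 against Veh, -1.43 ± 0.24 (adjusted p = 3.84e-05), followed by Anln at -1.40 ± 0.18 (adjusted p = 1.56e-06). Anln also fell under ACEi, by 0.84 ± 0.22 (adjusted p = 0.00486), a call that all 10 other settings and all 20 fits without 1 mouse kept. Ect2, an exchange factor for the GTPase RhoA, was at 3.25, 5.25, 5.36, 4.29 and 4.15 CPM in the 5 WT mice and ran from 4.97 to 9.69 CPM (median 6.69) in the 6 Veh mice. Ect2 under anti-miR-21 ran from 2.9977 to 5.29 CPM (median 4.62) over the 6 mice, and under ACEi it was at 5.94, 6.08 and 6.75 CPM. The Veh and WT mice overlapped for Ect2, while all ACEi mice lay above all WT and all anti-miR-21 mice. Ect2 rose by only 0.59 ± 0.18 (adjusted p = 0.00582), was at -0.63 ± 0.17 (adjusted p = 0.00344) under anti-miR-21 against Veh, and showed -0.10 (adjusted p = 0.713) under ACEi. Within flow cell A alone, Ect2 lost both calls, as did Cenpe between Veh and WT mice and Kif20a between anti-miR-21 and Veh mice. Melk, a kinase of the late wave, was at 0.0891, 0.164, 0.0845, 0.123 and 0.0419 CPM in the 5 WT mice and ran from 2.09 to 6.51 CPM (median 4.02) in the 6 Veh mice. Melk under anti-miR-21 ran from 1.21 to 2.41 CPM (median 1.75) over the 6 mice, and under ACEi it was at 2.82, 2.72 and 2.76 CPM. Melk had the largest rise of the 49, 5.35 ± 0.35 (adjusted p = 5.43e-11), from 1 to 4 counts a WT mouse, so the size of that fold is poorly fixed. Hmmr, Cdca3 and Ube2c, which act in spindle orientation, mitotic entry and cyclin destruction, rose by 3.45, 2.48 and 2.67, and fell under anti-miR-21 by 1.13, 0.91 and 1.21 against Veh, each past the threshold.

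Cks2, a small subunit that binds cyclin-dependent kinases, went the other way. It was at 28.1, 26.8, 31.5, 28.4 and 28.8 CPM in WT mice, ran from 12.7 to 19.5 CPM (median 14.3) in Veh mice and from 19.2 to 32.6 CPM (median 24.2) in anti-miR-21 mice, and was at 22.6, 26.0 and 23.6 CPM in ACEi mice. All Veh mice lay below all WT and all ACEi mice. Cks2 fell by 0.94 ± 0.12 in Veh mice (adjusted p = 4.53e-07) and was higher than in Veh under anti-miR-21, by 0.77 ± 0.11 (adjusted p = 8.59e-06), and under ACEi, by 0.68 ± 0.13 (adjusted p = 5.68e-04), a direction that no scaling turned. Per length Cks2 was the most abundant member in WT kidneys, at 34.3 ± 2.15 FPKM (SD, n = 5), against 26.9 ± 3.32 FPKM in Veh mice (SD, n = 6). Its window held CCAAT but no CHR or E2F word.

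**Figure D3:**
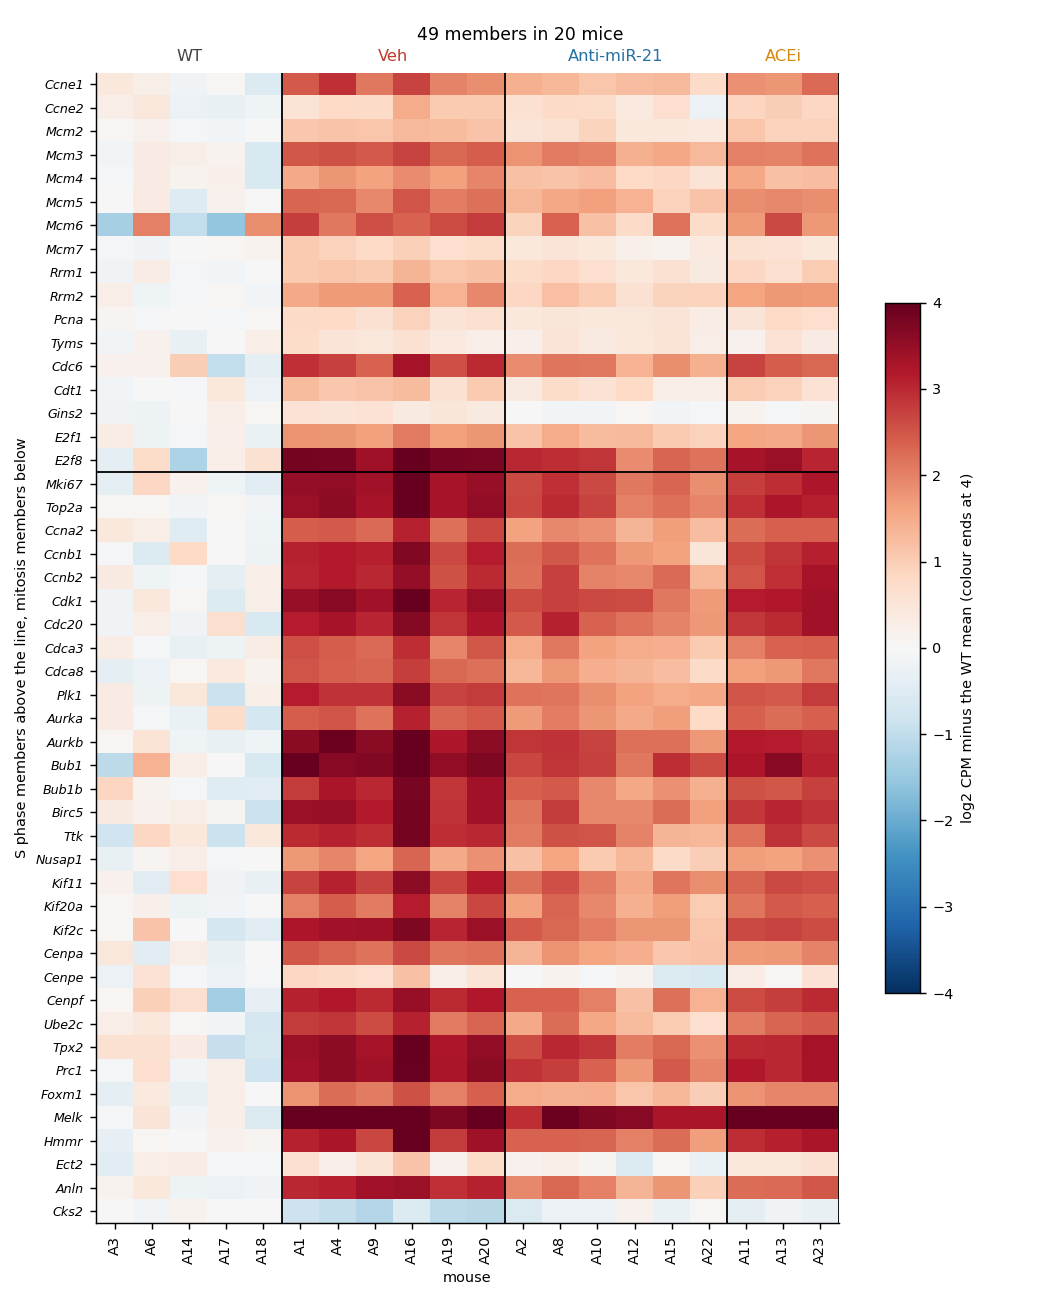
Log2 CPM of each member (rows, S phase above the line and mitosis below) minus its WT mean, in each of the 20 mice (columns, by group). Red is above and blue below the WT mean, and the scale ends at 4. Veh mouse A16 is highest in its group for 43 of the 49 members, Cks2 is blue in Veh mice, and Mcm6 is split in the WT, anti-miR-21 and ACEi columns.

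Anti-miR-21 lowered nearly the whole set against Veh. Of the S phase members 15 of 17 fell, with a median log2 fold change of -0.62 (range -1.32 to -0.11), and Mcm6 and Tyms were not called. Of the mitosis members 31 of 32 fell, with a median of -1.10, and Cks2 rose. Over all genes tested 30.5% were called lower and 28.8% higher, with a median of -0.04. The 2 groups did not overlap for 13 S phase and 23 mitosis members, against 36.4% of all genes. Without A16, the highest Veh mouse, anti-miR-21 still called 14 S phase and 32 mitosis members. Within flow cell A alone the counts were 14 and 30. The shares of 30.5% and 28.8% hold for the fit of all mice alone, so these counts cannot be set against them.

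ACEi gave smaller differences from Veh, and few of them were called. The ACEi group had 3 mice against 6 under anti-miR-21, so a change of the same size was less readily called. Mcm3, Rrm1, Mcm7 and Gins2 fell among the 17 S phase members (median log2 fold change of the 17 -0.34), and Aurkb, Anln, Cenpa and Cdca8 fell among the 32 mitosis members (median of the 32 -0.40) while Cks2 rose. The shares of all genes called were 19.1% lower and 21% higher, with a median of -0.05, so that the called share of the mitosis members was below that of all genes. ACEi and Veh mice did not overlap for 4 of the 17 S phase and 11 of the 32 mitosis members, Cks2 with the ACEi mice higher, and these shares were below the 38.6% of all genes. Values below 0, called or not, were found for 48 of the 49 members and 54.6% of all genes. These counts moved with the processing: scaling by library totals alone called 14 S phase and 18 mitosis members lower, with the median of all genes at -0.32, DESeq2 called 5 and 7 lower, and limma on log2(FPKM + 1) called 14 and 21 lower. The shares of 19.1% and 21% hold for the TMM-scaled edgeR fit alone, so the counts of other settings cannot be set against them. Leaving out 1 mouse in turn gave 2 to 5 called S phase members and 2 to 7 called mitosis members, with 2 S phase calls left without A1, A4, A9, A16, A19, A20, A13 or A23, 3 mitosis calls without A1, A4 or A16, and 2 without A11 or A13. The Mcm3 call was lost without A3, A1, A4, A9, A16, A19, A20, A11, A13 or A23, that of Rrm1 without A1, A4, A9, A16, A19, A20, A11 or A13 and that of Mcm7 without A23, while Gins2, Anln and Cks2 were called in all 20.

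Both treatments were also set against each other, which does not use the Veh mice except for the shared estimate of spread. Of the S phase members 16 of 17 had values below 0, that is lower under anti-miR-21 than under ACEi, with a median log2 fold change of -0.37, and of the mitosis members 31 of 32, with a median of -0.63, where the median of all genes was 0.01. Rrm2 (-0.75 ± 0.16, adjusted p = 0.0372) and Mcm2 (-0.43 ± 0.09, adjusted p = 0.0418) were called lower, 2 of 17, against 0.221% of all genes. Of the 32 mitosis members edgeR called 0. DESeq2 called 8 of the 32 and 3 S phase members, and the share of all genes it called is not given beside these counts. The anti-miR-21 and ACEi mice did not overlap for 8 S phase and 17 mitosis members, against 8.99% of all genes, and in all 25 the anti-miR-21 mice were the lower. Calls at this comparison were fragile, since neither was kept with flow cell as a term, Rrm2 was lost without A2, A10, A12, A15, A22, A11, A13 or A23, and Mcm2 without A3, A4, A20, A2, A12, A15, A22, A11, A13 or A23. Without A8, the highest anti-miR-21 mouse for 31 of the 49 members, edgeR called 5 mitosis members, and without A16 it called 2. The 0.221% holds for the fit of all mice alone, so these counts cannot be set against it. Of the 3 ACEi libraries 2 were on flow cell B, and of the 6 anti-miR-21 libraries 1.

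Neither treatment brought the set to the WT level. Under anti-miR-21 14 S phase members (median log2 fold change 0.69) and 29 mitosis members (median 1.93) were still higher than in WT, where 23.9% of all genes were. Under ACEi 15 S phase members (median 1.25) and 29 mitosis members (median 2.64) were, against 25.2% of all genes. As a share of the log2 distance from the Veh mean back to the WT mean, the median S phase member moved 46.6% under anti-miR-21 and 16.4% under ACEi, and the median mitosis member 37.2% and 12.6%, both treatments being measured from the same Veh and WT mice. For comparison, the 6869 genes called higher in Veh than in WT mice moved by a median of 49.7% and 36.4%. Under anti-miR-21 the members with the largest share moved were Cenpe (122%), Gins2 (109%) and Ect2 (107%), and those with the smallest were Tyms (22.4%), Melk (25.5%) and Cdc20 (28.6%). Under ACEi Gins2 (86.3%), Cks2 (72.9%) and Cenpe (56.0%) had the largest shares, and Kif20a (2.32%), Hmmr (3.13%) and Ccnb2 (4.77%) the smallest. The shares of Gins2 hold for the counts alone, since by FPKM the 6 anti-miR-21 mice averaged 4.23 ± 0.931 (SD) and the 3 ACEi mice 6.13 ± 0.761 (SD), above the 1.60 of WT mice. Ect2 set the treatments furthest apart among the mitosis members, at 107% against 12.1%, but its Veh and WT mice overlapped. Shares of Cenpe, Gins2 and Ect2 rest on short distances and are poorly fixed. Their mean log2 CPM in WT and Veh mice was 1.27 and 1.97, 5.22 and 5.69, and 2.16 and 2.73. The same holds for Tyms, at 3.48 and 3.98.

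The same picture held mouse by mouse. The median mitosis member stood 2.74 to 3.60 above the WT mean on the log2 scale in the 6 Veh mice, 1.33 to 2.35 in the 6 anti-miR-21 mice and 2.51 to 2.69 in the 3 ACEi mice, while the WT mice ran from -0.15 to 0.25. The anti-miR-21 mice did not overlap the ACEi or the Veh mice, and the ACEi mice were just below the lowest Veh mouse. For the median S phase member the ranges were 1.38 to 1.88 in Veh, 0.55 to 1.15 in anti-miR-21 and 1.16 to 1.54 in ACEi mice. The highest anti-miR-21 mouse, A8, at 1.15, lay next to the lowest ACEi mouse, A13, at 1.16. Veh mouse A16 was highest for both lists, at 1.88 and 3.60, and had the highest CPM of its group for 43 of the 49 members. Anti-miR-21 mouse A22 was lowest among the treated mice, at 0.55 and 1.33, with the lowest CPM of its group for 31 members. Both lists were ordered alike on flow cell A, where ACEi has the single mouse A23 at 2.69 for mitosis against 1.33 to 2.35 in the 5 anti-miR-21 mice and 2.74 to 3.14 in the 4 Veh mice.

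**Figure D4:**
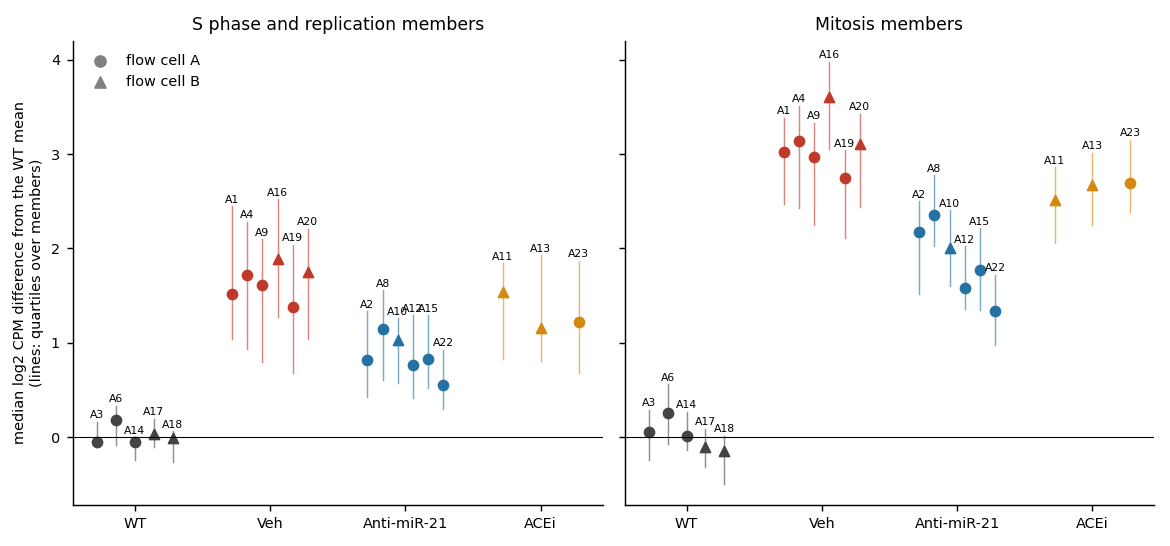
Median log2 CPM difference from the WT mean over the S phase members (left) and the mitosis members (right), 1 point per mouse, with lines for the quartiles over members, circles for flow cell A and triangles for flow cell B. For mitosis the anti-miR-21 mice reach at most 2.35, below the lowest ACEi mouse at 2.51 and the lowest Veh mouse at 2.74.

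Genes of the same pathways outside the 49 were read from lists drawn up with earlier results of these data known. Of 30 other replication genes 24 rose in Veh mice (median log2 fold change 1.10), and of 32 other mitosis genes 30 rose and 2 fell (median 3.01). Among all genes 39% rose and 34% fell. Clspn, a checkpoint adaptor of the replication fork, rose by 3.92 ± 0.32 (adjusted p = 9.57e-10) and Uhrf1, which maintains DNA methylation, by 3.39 ± 0.19 (adjusted p = 6.77e-12). Mcm10, which acts in the start of replication, fell by 0.82 ± 0.19 (adjusted p = 7.95e-04). Ndc80, a kinetochore gene, and Cdc25c, a phosphatase that activates Cdk1, led the other mitosis genes at 4.30 and 4.21. Pttg1 (securin) and the kinetochore gene Spc25 fell by 0.53 and 0.48, but their direction turned with library totals alone. Under anti-miR-21 21 of the 30 replication genes and 29 of the 32 mitosis genes fell against Veh, where 30.5% of all genes did. Under ACEi 7 of the 30 replication genes and 9 of the 32 mitosis genes fell, against 19.1% of all genes. Between the treatments edgeR called 0 of either list.

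The regulators of the G1 checkpoint did not move as 1 block. Of 6 G1 cyclins and kinases, Ccnd2 (1.54 ± 0.17, adjusted p = 8.08e-08), Cdk6 (0.93), Cdk4 (0.87) and Cdk2 (0.70) rose in Veh mice, whereas the D cyclins Ccnd1 (-0.41) and Ccnd3 (-0.47) fell with TMM scaling and were above 0 and not called with library totals alone. Of 12 inhibitors and pocket proteins 6 rose, led by Cdkn2a (3.33 ± 0.60, adjusted p = 5.01e-05), Cdkn1a, which encodes p21 (2.52 ± 0.31, adjusted p = 3.02e-07), and Cdkn2b (2.15 ± 0.37, adjusted p = 2.68e-05), and 2 fell, Rbl2 (-0.76) and Ccng1 (-0.59), where 39% of all genes rose. With library totals alone 10 of the 12 rose and 0 were called lower, and with upper-quartile scaling 10 rose and 2 fell. The 39% holds for TMM scaling alone, so these counts cannot be set against it. With library totals alone the median gene was itself higher in Veh mice. Rb1 itself was at 0.08 ± 0.06 (adjusted p = 0.238). Of 9 transcription factors 7 rose, among them E2f7 (3.27 ± 0.39, adjusted p = 1.80e-07), Myc (2.40 ± 0.24, adjusted p = 1.27e-08) and Mybl2 (0.93 ± 0.14, adjusted p = 3.68e-06), and Lin54 fell with TMM scaling (-0.43) but was above 0 and not called with library totals alone. With TMM scaling, 6 of the 12 inhibitors and pocket proteins were called lower and 3 higher under anti-miR-21 than in Veh mice. Among all genes 30.5% were called lower and 28.8% higher. Under ACEi 4 of the 12 were called lower and 2 higher, against 19.1% and 21% of all genes. The 3 leading inhibitors, picked by their rise in the same Veh mice, were lower under both treatments than in Veh mice. Against Veh, Cdkn1a was lower by 0.99 ± 0.27 under anti-miR-21 and 1.02 ± 0.34 under ACEi, Cdkn2b by 1.86 ± 0.34 and 1.78 ± 0.44, and Cdkn2a by 2.56 ± 0.52 and 3.17 ± 0.72, all 6 past the threshold. Set directly against ACEi, anti-miR-21 gave 0.02 ± 0.33 (adjusted p = 0.983) for Cdkn1a, -0.07 ± 0.42 (adjusted p = 0.956) for Cdkn2b and 0.60 ± 0.74 (adjusted p = 0.739) for Cdkn2a, none of them past the threshold, which does not show that the treatments act alike.

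**Figure D5:**
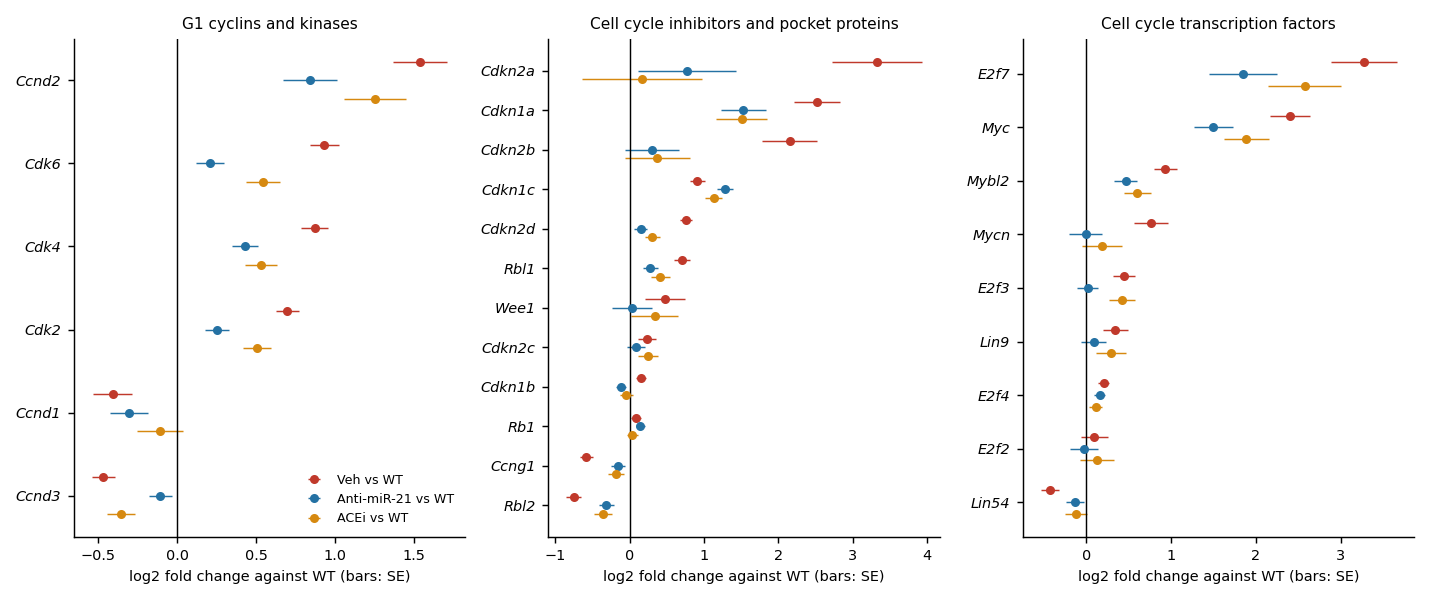
Log2 fold change against WT (x axis, bars are SE) of 6 G1 cyclins and kinases, 12 inhibitors and pocket proteins and 9 transcription factors in Veh (red), anti-miR-21 (blue) and ACEi mice (orange). For Cdkn2a, Cdkn1a and Cdkn2b the blue and orange points lie to the left of the red points at 3.33, 2.52 and 2.15, and those of Cdkn2a are 0.60 apart.

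Markers of cell types that can divide, or whose share can shift, moved with the same groups. Summed over 6 macrophage markers the level was 140 to 154 in WT, 817 to 998 in Veh, 341 to 518 in anti-miR-21 and 450 to 532 in ACEi mice (CPM). Over 5 T cell markers it was 0.802 to 2.13 in WT, 12.1 to 32.2 in Veh, 7.73 to 15.954 in anti-miR-21 and 10.9 to 17.8 in ACEi mice, and over 5 fibroblast markers 111 to 258 in WT, 1504 to 1812 in Veh, 429 to 822 in anti-miR-21 and 805 to 915 in ACEi mice. All 6 macrophage, all 5 T cell and all 5 fibroblast markers rose in Veh mice, 6, 5 and 4 of them fell under anti-miR-21, and 6, 0 and 2 fell under ACEi. Over all genes 39% were called higher in Veh than in WT mice, and 30.5% and 19.1% lower under anti-miR-21 and ACEi than in Veh mice. All 5 proximal tubule markers fell in Veh mice and were higher under both treatments than in Veh (11688 to 14986 in WT, 1291 to 3629 in Veh, 6394 to 10660 in anti-miR-21 and 6650 to 8710 in ACEi mice), and tubule injury markers were at 23.2 to 35.4 in WT, 836 to 1352 in Veh, 268 to 555 in anti-miR-21 and 536 to 624 in ACEi mice. B and plasma cell markers were at 7.05 to 18.8 in WT, 17.958 to 77.5 in Veh, 9.77 to 31.4 in anti-miR-21 and 13.3 to 53.4 in ACEi mice, erythroid markers at 648 to 3885 in WT, 7.48 to 243 in Veh, 448 to 929 in anti-miR-21 and 212.03 to 444 in ACEi mice, other nephron segments at 6196 to 7596 in WT, 2323 to 5185 in Veh, 4847 to 6334 in anti-miR-21 and 3911 to 5620 in ACEi mice, and adipocyte markers at 1.68 to 18.3 in WT, 0.592 to 410 in Veh, 4.70 to 224 in anti-miR-21 and 0.525 to 8.09 in ACEi mice. The adipocyte sum split the Veh mice, at 410, 366 and 351 CPM in A1, A4 and A9 and at 0.592 to 23.4 CPM in the other 3, and it was below the proximal tubule sum in every mouse. No marker of these lists was at 0 in all mice, and their part in the members' changes was not tested.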

How the data were processed

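Kidney RNA of 20 mice in 4 groups was sequenced, 1 library per mouse. The authors used the OmicSoft aligner with the GRCm38 genome and deposited expected counts (estimated counts per Ensembl gene, not normalized between libraries), of which 29.1% of the values above 0 were not whole and were rounded here. The authors also deposited FPKM values, scaled for exon length and mapped reads, on other gene models, where 3 columns of other libraries were not used. Whether counting used strand is not given in the sources used here. Rows without a gene symbol held 0.0919% of counts. Each library is 1 mouse, and totals of 28474301 to 29479629 limit the precision of members with few counts.

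Counts were scaled by TMM, filtered with filterByExpr (minimum count 10, minimum total 15) and fitted in edgeR 4.0.16 (R 4.3.3) by the quasi-likelihood test, with all 20 mice in 1 fit and 6 comparisons. P-values were Benjamini-Hochberg adjusted over all genes tested, with calls at 0.05, and the SE was taken from the fold change and its F statistic. The comparisons share their Veh or WT mice. Log2 CPM used a prior count of 2. The fit was tested on simulated data with 200 changed genes. DESeq2 1.42.0 and limma 3.58.1 on log2(FPKM + 1) and log2(FPKM + 0.1) were alternatives, beside other scalings and filters, flow cell, the 2 groups alone, and leaving out each mouse. Python 3.11.15 was used for sequences and figures.

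The members and lists were chosen with earlier results of these data known. All members could be named. Values by mouse (range and median for groups of 6) were given for 16 listed members and the 3 of each phase with the largest change between Veh and WT mice, and for Mcm3, Mcm6, Tyms, Anln, Ect2 and Cks2 after their values were seen. Other pathway genes were named by the largest rises and falls of each list, together with Ccnd1, Cdkn1a, Mybl2 and Rb1, and the remaining regulators after their values were seen. Of 46 marker genes 45 were matched, all but Ahsp. Promoter windows came from RefSeq (GRCm38.p6). A gene that the naming rule would have given is not reported here.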

Additional observations from a re-analysis of the deposited data

Results flagged for a closer look

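Each member was searched for a single mouse far from the rest of its group, by Dixon's gap over the range, in WT, Veh and anti-miR-21 mice. Of 147 groups of values 12 had such a mouse. The threshold is meant to be passed by about 1 in 20 groups by chance. The members were measured in the same mice and are not independent, so the count cannot be set against that rate. Veh mouse A16 stood above the other 5 for 7 members. It was at 37.6 CPM for Mki67 (others 21.5 to 25.8), 31.7 for Top2a (16.99 to 20.8), 15.0 for Tpx2 (8.44 to 10.7) and 12.6 for E2f1 (9.26 to 10.3). It was at 10.2 CPM for Aurka (5.32 to 6.83), 6.02 for E2f8 (2.69 to 3.65) and 3.76 for Ttk (2.03 to 2.25). The same mouse had the highest summed T cell markers of its group, 32.2 CPM against 12.1 to 20.5, the highest proximal tubule (3629 CPM against 1291 to 2641), other nephron (5185 CPM) and erythroid sums (243 CPM), and the lowest fibroblast (1504 CPM) and B and plasma cell sums (17.958 CPM). Their part in these values was not tested.

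WT mouse A6 stood above the other 4 at 13.2 CPM for Rrm1 (9.84 to 10.7), 3.57 for Cenpe (2.003 to 2.24) and 1.03 for Kif2c (0.245 to 0.445), and it had the highest summed erythroid markers of all 20 mice, at 3885 CPM, whose part was not tested. WT mouse A14 was at 1.56 CPM for Ccnb1 (others 0.574 to 0.858), and WT mouse A18 was lowest for Birc5, at 0.461 CPM (others 0.981 to 1.16).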

How the results depend on the processing

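Of 366 recomputed counts of called members 319 were within 1.5 times the reported count, and those for Veh against WT, anti-miR-21 against Veh and both treatments against WT were so under every alternative run, counts without 1 mouse included. A minimum of 10 counts in every mouse left 14 S phase and 26 mitosis members to test. No paired analysis was possible because each mouse had its own number. ACEi against Veh depended most on the processing. In place of 4 S phase and 5 mitosis members, upper-quartile scaling called 7 and 10, library totals alone 14 and 19, no filter 2 and 3, the 2 groups alone 7 and 9, and limma 14 and 22 on log2(FPKM + 1) and 13 and 20 on log2(FPKM + 0.1), while DESeq2 called 8 mitosis members. Without 1 mouse the ranges were 2 to 5 and 2 to 7. For anti-miR-21 against ACEi, in place of 2 S phase members, library totals alone, no filter, the 2 groups alone and both FPKM fits called 1, and flow cell as a term 0. In place of 0 mitosis members DESeq2 called 8 and the 2 groups alone 2. Without 1 mouse the ranges were 0 to 2 and 0 to 5. Gins2 under anti-miR-21 against WT was at -0.05 and reversed to 0.998 and 1.34 on the 2 FPKM scales. Of the members' values under all alternatives, 8610 kept their sign and their side of the threshold, 175 gained and 90 lost the call, 2 reversed, and 36 changed sign without being called in either fit, 6 of them with library totals alone. Flow cell A alone gave no value for ACEi, with 1 mouse. Low counts in WT mice limit the folds of Melk, Bub1, Ttk and E2f8. The causes of these shifts were not tested, and the share of all genes called under each alternative is not given beside these counts.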
